A study of Arabidopsis thaliana with 6 samples.

Results

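The catalytic subunits of cellulose synthase, CESA1 to CESA9, and the membrane-bound endoglucanase KORRIGAN1 (KOR1) were examined at the transcript level in whole Arabidopsis thaliana seedlings. These 10 genes were taken by their locus identifiers from the 33557 genes of the authors' deposited table, and all 10 were among the 22892 genes that the authors tested. The rule that takes them sets no threshold on a measured value, though the set was proposed with earlier results of these data known. Seedlings of the phyA-1 mutant, which carries a mutant allele of the photoreceptor gene PHYA, were compared with wild-type seedlings. Both are of the accession Landsberg erecta (Ler), and both grew for 4 days in darkness before 3 hours of far-red light, so no library shows the dark state alone. The labels describe 3 biological replicates per genotype. The deposited table holds 1 pooled level per gene and genotype, in FPKM (fragments scaled to transcript length and to the number of mapped fragments), so no value below carries a spread between replicates, and the depth behind it is unknown. A gene is called here when the q-value of the authors' deposited table is 0.05 or below, and rose or fell means a called difference of phyA-1 from wild type. Log2 ratios are phyA-1 over wild type with 1 FPKM added to each level.

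Cellulose is the load-bearing polymer of the plant cell wall. Rosette-shaped complexes of CESA proteins in the plasma membrane draw UDP-glucose from the cytosol and spin out glucan chains that bundle into microfibrils. In growing cells the complex holds CESA1, CESA3 and the third subunit, which can be CESA6 or its relatives CESA2, CESA5 and CESA9. In cells that lay down a thick secondary wall, such as xylem vessels, CESA4, CESA7 and CESA8 take these positions. KOR1 is an endoglucanase of the same membranes that cellulose synthesis requires. The rapid growth of the hypocotyl in darkness depends on this machinery, and mutants of CESA6, known as procuste, have short hypocotyls in the dark. Work in Arabidopsis has also linked cellulose synthesis in seedlings to phytochrome, through CESA5, a link that the transcript levels below do not test.

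One of the 10 genes passed the authors' test. CESA5 fell in phyA-1, none rose, and 9 were not called. Over all tested genes 17.2% were called, 8.54% lower and 8.61% higher in phyA-1, so a count of 1 in 10 lies near what the table shows for genes at large. With 1 FPKM added, the other CESA genes stayed within 0.32 of 0 on the log2 scale. For CESA9, the lowest, this bound rests on the pseudocount, since its log2 ratio was 0.47 with none. The order of the 10 levels was the same in both genotypes, with KOR1 first, then CESA3, CESA1, CESA6, CESA2, CESA5, CESA4, CESA7, CESA8 and CESA9.

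CESA5 and its nearest relative CESA6 are shown in detail, because CESA5 was called and CESA6 was not, while their sequences are close. Whether their ratios differ could not be tested with pooled values. Over their aligned coding sequences, taken from the RefSeq annotation of TAIR10.1, CESA6 and CESA5 are 86.0% identical, the highest of the 36 pairs among the 9 CESA genes. The longest run of identical bases that any such pair shares is 50 bases, also between these genes. It lies in coding exon 9 of each, at chr5:3076028-3076077 in CESA5 and chr5:25884373-25884422 in CESA6, both on the plus strand, and is shown because a read that falls wholly within it cannot be placed by sequence.
shared coding run of CESA5 and CESA6: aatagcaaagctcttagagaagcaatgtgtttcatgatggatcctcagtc

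Such stretches make up little of either transcript. Cut into windows of 30 bases, 98.9% of the CESA5 exon windows and 98.6% of the CESA6 exon windows occur once in the genome. For the other 8 genes this share ran from 98.5% for CESA9 to 100% for CESA4, CESA7 and CESA8. The sources used here give no read length, and the reads came from Ler while the windows come from the Columbia reference.

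The promoters of CESA5 and CESA6 are shown for the same reason, as the 250 bases before the RefSeq gene start on TAIR10.1, from chr5:3072620-3072869 and chr5:25880783-25881032. Capitals mark the longest run that both hold, 13 bases, which starts 63 bases before the RefSeq gene start in CESA5 and 70 bases before it in CESA6. These positions depend on the annotation. The deposited locus of CESA5 starts further in, at 3073356 against 3072870 in RefSeq, and that of CESA6 at 25881066 against 25881033.
CESA5 promoter: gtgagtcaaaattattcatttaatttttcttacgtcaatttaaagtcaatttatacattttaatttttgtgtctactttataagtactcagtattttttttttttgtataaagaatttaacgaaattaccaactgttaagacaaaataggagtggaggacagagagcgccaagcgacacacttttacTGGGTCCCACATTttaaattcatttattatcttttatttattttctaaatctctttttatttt
CESA6 promoter: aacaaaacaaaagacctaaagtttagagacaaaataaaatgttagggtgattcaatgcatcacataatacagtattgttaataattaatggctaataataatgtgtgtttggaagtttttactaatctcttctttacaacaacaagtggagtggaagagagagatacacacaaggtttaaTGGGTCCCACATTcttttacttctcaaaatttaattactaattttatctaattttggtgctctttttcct

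Of the 45 promoter pairs among the 10 genes, this was the pair with the longest shared run, though the next pair, CESA9 and CESA4, shared 12 bases. The run TGGGTCCCACATT occurs in 3 of 27443 promoters of protein-coding genes on either strand, CESA5 and CESA6 among them. It contains GGNCCCAC, a motif that TCP transcription factors are known to bind. That motif, searched on both strands, is in 1.1% of all promoters and in those of 2 of the 10 genes, CESA5 and CESA6. The run was taken from these 2 promoters, and the motif was picked from within it after the run had been seen. Both matches were therefore fixed beforehand and show no enrichment. The letters ACGT, the core of sites bound by bZIP factors such as HY5, which promotes seedling greening in the light, are in 44.1% of all promoters. They are in 2 of the 10, once in CESA5 at position -219 from the gene start and once in CESA1 at position -21. The G-box CACGTG, which contains ACGT and which both bZIP and bHLH factors bind, is in 6.5% of all promoters and in none of the 10. These are matches of letters within a window of 250 bases before the RefSeq gene start. Their bearing on the levels was not tested, nor was a difference between the ratios of CESA5 and CESA6.

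CESA1 and CESA3 are the obligate subunits of the primary wall complex. CESA1 (AT4G32410, deposited locus chr4:15640620-15646665 on TAIR10) had 192 FPKM in phyA-1 and 219 FPKM in wild type, a log2 ratio of -0.18 that missed the threshold (q = 0.515 in the authors' deposited table). CESA3 (AT5G05170, chr5:1530174-1535414) had 223 FPKM in phyA-1 and 229 FPKM in wild type, a log2 ratio of -0.04 (q = 0.901 in the authors' deposited table). Both are among the more abundant transcripts of these seedlings, above 97.0% and 97.3% of tested genes by mean level. CESA1 stood at 0.865 of the CESA3 level in phyA-1 and at 0.955 in wild type.

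**Figure D1:**
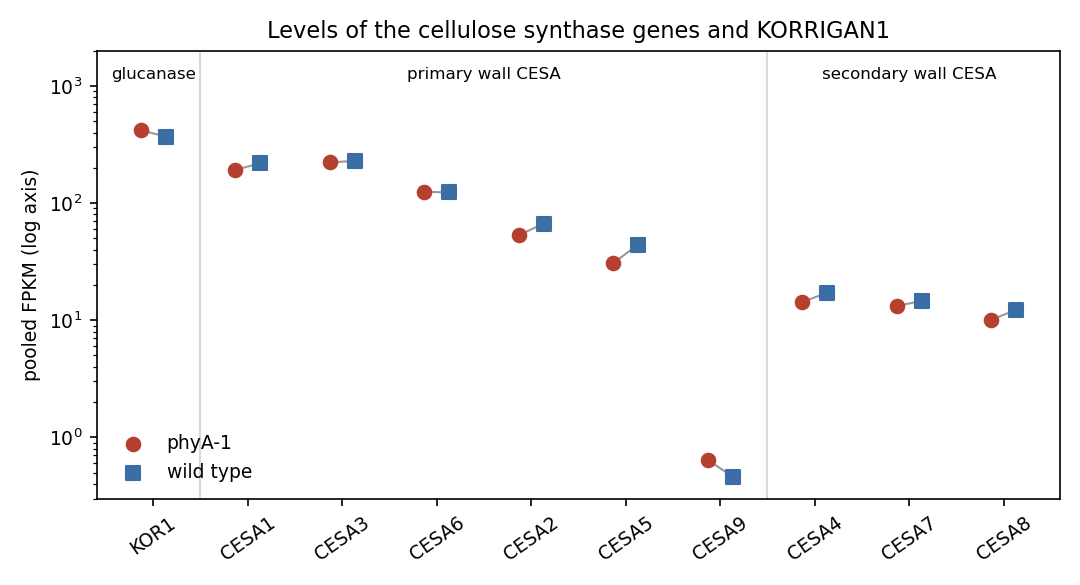
Pooled FPKM of each gene on a log axis, with phyA-1 as red circles on the left and wild type as blue squares on the right of each pair, without error bars because the authors' table gives 1 value per genotype. KOR1 and CESA3 are highest, CESA9 is below 1 FPKM in both genotypes, and CESA5, at 30.8 FPKM in phyA-1 and 44.3 FPKM in wild type, shows the widest gap on this log axis among the CESA genes above 1 FPKM.

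The CESA6-like genes, which compete for the third position, included 1 that fell and 3 that were not called. Over all tested genes 17.2% were called, 8.54% of them lower in phyA-1 as a share of all tested. CESA5 (AT5G09870, chr5:3073356-3078262), which also makes the cellulose of seed coat mucilage, had 30.8 FPKM in phyA-1 and 44.3 FPKM in wild type. It fell by 0.51 on the log2 scale, with p = 0.0006 and q = 0.00413 in the authors' deposited table. As a ratio of FPKM without a pseudocount, its phyA-1 level was 0.695 of the wild-type level, or 30.5% lower.

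CESA6 (AT5G64740, chr5:25881066-25886694), the main subunit at that position in dark-grown hypocotyls, had 125 FPKM in phyA-1 and 123 FPKM in wild type. Its log2 ratio was 0.02 (q = 0.956 in the authors' deposited table), the smallest ratio of the 10 in size, and its sign turned under other scalings of the genotypes (-0.05 after subtraction of the median ratio of genes at 5 FPKM or more). CESA2 (AT4G39350, chr4:18296797-18302192) had 53.4 FPKM in phyA-1 and 66.7 FPKM in wild type, a log2 ratio of -0.32. Its p of 0.0421 in the authors' deposited table was below 0.05 before adjustment, as for 25.7% of tested genes, but its q of 0.131 was not. CESA9 (AT2G21770, chr2:9284837-9289536), known from seeds and pollen, had 0.641 FPKM in phyA-1 and 0.463 FPKM in wild type (q = 0.266 in the authors' deposited table). At such a level the pseudocount decides the size of the ratio, 0.17 with 1 FPKM added and 0.47 with none. CESA3 was 347 times as abundant as CESA9 in phyA-1 and 495 times in wild type.

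The CESA5 level was 0.246 of the CESA6 level in phyA-1 against 0.359 in wild type. The CESA2 level stood at 0.427 of CESA6 in phyA-1 against 0.540 in wild type. Of the summed FPKM of the CESA6-like genes, CESA6 made up 59.6% in phyA-1 against 52.5% in wild type. CESA2 made up 25.4% in phyA-1 against 28.4% in wild type. CESA5 made up 14.7% in phyA-1 against 18.9% in wild type, and CESA9 0.31% in phyA-1 against 0.20% in wild type. These shares are descriptions of pooled values, and no test of them could be made.

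Summed over the genes that can fill it, the third position stood close to the other positions of the complex. The 4 CESA6-like genes together summed to 209.8 FPKM in phyA-1, where CESA1 had 192 FPKM and CESA3 had 223 FPKM. In wild type they summed to 234.9 FPKM, where CESA1 had 219 FPKM and CESA3 had 229 FPKM. Of the primary wall CESA sum, CESA1 held 30.8% in phyA-1 against 32.0% in wild type. CESA3 held 35.6% in phyA-1 against 33.6% in wild type, and the CESA6-like genes held 33.6% in phyA-1 against 34.4% in wild type. Each position thus held between 30.8% and 35.6% in either genotype. The sum of all 6 primary wall genes was 624.9 FPKM in phyA-1 and 683.0 FPKM in wild type, a log2 ratio of -0.13.

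**Figure D2:**
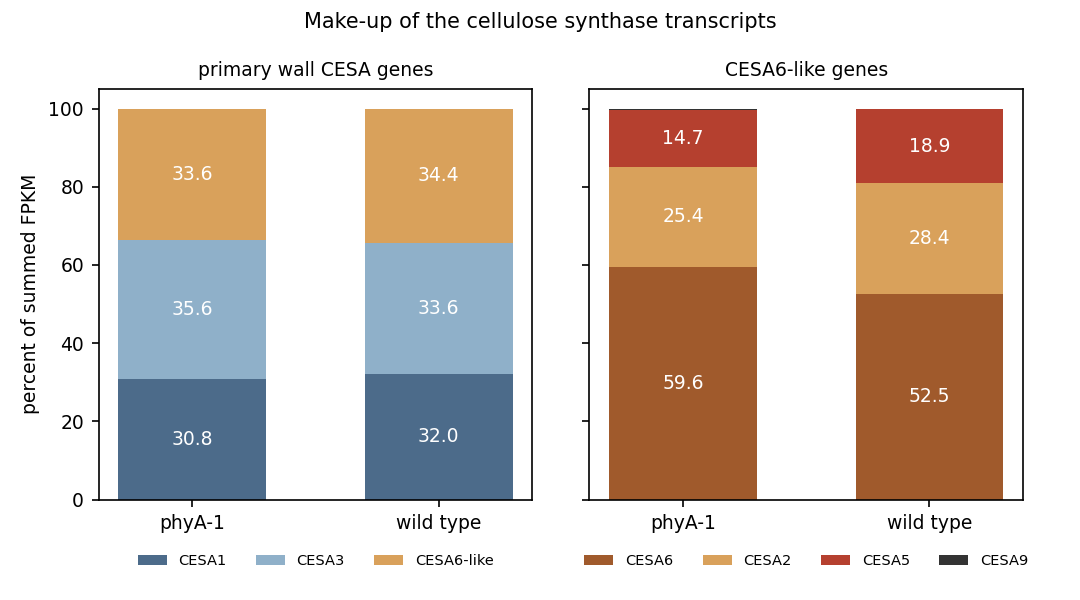
Percent of summed FPKM held by each subunit position of the primary wall CESA genes (left) and by each gene among the CESA6-like genes (right), with phyA-1 left of wild type in each panel. The positions hold similar shares in both genotypes, while within the CESA6-like genes CESA5 holds 14.7% in phyA-1 against 18.9% in wild type and CESA6 59.6% in phyA-1 against 52.5% in wild type. CESA9 is too low to be visible as a band.

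The secondary wall genes had far lower levels than the main primary wall genes, and none was called. CESA4 (AT5G44030, chr5:17714645-17721580) had 14.3 FPKM in phyA-1 and 17.2 FPKM in wild type, a log2 ratio of -0.25 (q = 0.248 in the authors' deposited table). CESA7 (AT5G17420, chr5:5730610-5741465) had 13.3 FPKM in phyA-1 and 14.6 FPKM in wild type, a log2 ratio of -0.13 (q = 0.642 in the authors' deposited table). CESA8 (AT4G18780, chr4:10311030-10316790) had 10.1 FPKM in phyA-1 and 12.3 FPKM in wild type, a log2 ratio of -0.26 (q = 0.167 in the authors' deposited table). All 3 had the lower value in phyA-1, and their levels lay within 10.1 to 14.3 FPKM in phyA-1 and 12.3 to 17.2 FPKM in wild type. The sum of the primary wall genes was 16.6 times that of the secondary wall genes in phyA-1 and 15.5 times in wild type. In whole seedlings, fewer cells of a type and less RNA per cell cannot be told apart.

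Each secondary wall gene shares its deposited locus with a neighbour on the opposite strand whose annotated end overlaps its own, which makes these levels less certain. CESA4 overlaps AT5G44040 by 65 bases, and that gene had 5.79 FPKM in phyA-1 and 6.06 FPKM in wild type. CESA7 overlaps AT5G17410 by 66 bases, and that gene had 6.03 FPKM in phyA-1 and 6.58 FPKM in wild type. CESA8 overlaps MYB98 (AT4G18770) by 481 bases, and that gene was at 0.0258 FPKM in phyA-1 and 0.0325 FPKM in wild type. CESA4 also overlaps AT5G44020 on the same strand by 17 bases, and CESA8 overlaps AT4G06845 on the opposite strand by 81 bases. Overlaps of 28, 74 and 29 bases with a gene on the opposite strand are annotated at CESA1, CESA3 and KOR1. The sources used here do not say whether the libraries keep the strand.

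KOR1 (AT5G49720, GH9A1 in RefSeq, chr5:20197391-20200288) was the most abundant of the 10, with 419 FPKM in phyA-1 and 369 FPKM in wild type. Its log2 ratio of 0.18 missed the threshold (q = 0.533 in the authors' deposited table). FPKM is scaled by length, so levels of different genes can be set side by side, and KOR1 stood at 2.18 times the CESA1 level in phyA-1 and 1.69 times in wild type. Against CESA3 it stood at 1.88 times in phyA-1 and 1.61 times in wild type.

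The size of difference that the authors' test called at like levels bounds what the 9 uncalled genes show. At mean levels within 1.5-fold of a member other than CESA9, the smallest called ratio ran from 0.34 (CESA8) to 0.375 (KOR1) in size. Around CESA9, where the pseudocount shrinks ratios, it was 0.27. Among genes with a mean level within 1.5-fold of CESA1, the smallest called ratio was 0.37 in size, and of the 289 that also had a ratio within 0.1 of that of CESA1 in size, none was called. Around CESA2, 66 of 532 such genes were called, or 12.4%. Around CESA5, 253 of 279 were called, or 90.7%. Around CESA3, CESA6 and KOR1 none of 224, 305 and 138 such genes was called. Around CESA4 and CESA7 none of 1533 and 2219 was called, around CESA8 6 of 1437, and around CESA9 none of 621. Differences of the size listed for CESA1, CESA3, CESA6, CESA9, the secondary wall genes and KOR1 are therefore ones that this test seldom or never called at these levels. The lack of a call does not show that the genotypes were alike.

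**Figure D3:**
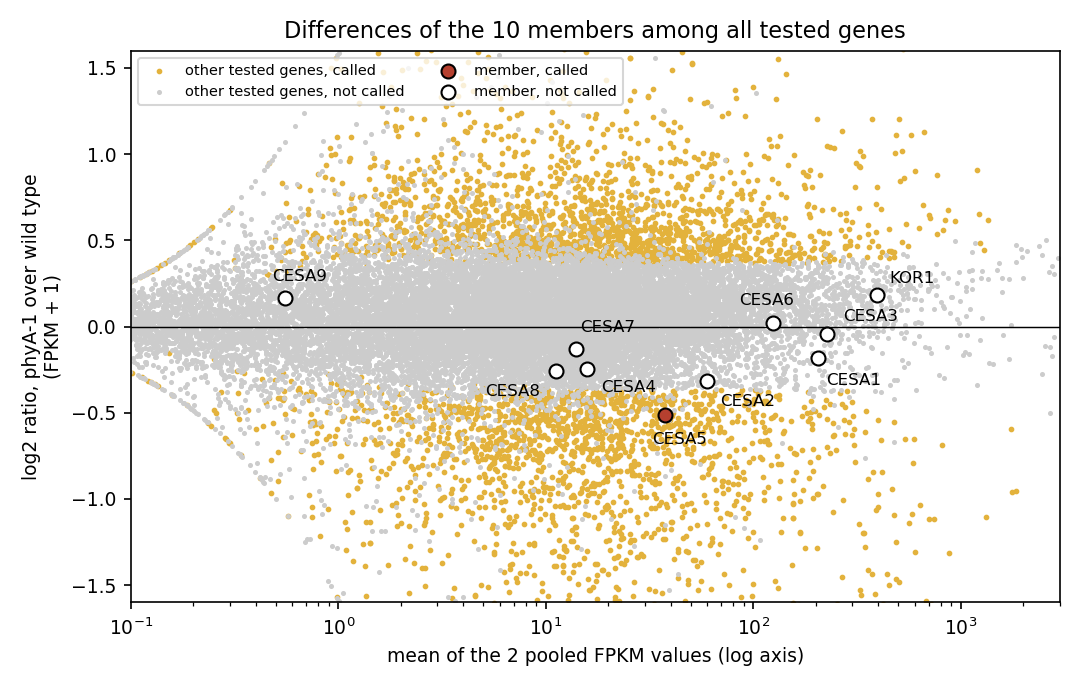
Log2 ratio of phyA-1 over wild type against mean FPKM for all tested genes within the plotted range, called genes in yellow and uncalled genes in grey, with the 10 members as large circles, filled when called. CESA5, at -0.51, lies among called genes, and the other 9 lie between -0.32 and 0.18 in the band of uncalled genes.

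The median log2 ratio of the 10 genes was -0.16, beside 0.05 for all tested genes. A ratio below 0 was found for 7 of the 10, and for 9385 of all 22892 tested genes. The 10 are related in sequence and function and were not drawn at random, so these counts are given as a description.

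Other genes linked to cellulose synthesis, secondary walls or xylem were read from 4 lists. Of their 57 genes, 55 were in the table and 49 were tested. Of these, 3 rose, 1 fell and 45 were not called, and their median log2 ratio was 0.01, beside 17.2% called and a median of 0.05 over all tested genes. The partners and delivery factors of the complex include CSI1, which ties it to microtubules, the companion proteins CC1 and CC2, the anchored protein COBRA, the STELLO proteins of the Golgi and relatives of the 10 such as CESA10 and KOR2. None of the 19 tested members of this list was called, and 1 had an unadjusted p of 0.05 or below. Its most abundant member, the chitinase-like CTL1 (AT1G05850), had 866 FPKM in phyA-1 and 803 FPKM in wild type, a log2 ratio of 0.11 (q = 0.747 in the authors' deposited table). That level is above those of KOR1 and each CESA gene in either genotype.

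Among 10 genes of UDP-glucose supply, 1 rose, 1 fell and 8 were not called, beside 17.2% called over all tested genes. UGP2 (AT5G17310), 1 of 2 UDP-glucose pyrophosphorylase genes listed, had 19.3 FPKM in phyA-1 and 33.9 FPKM in wild type, and fell by 0.78 on the log2 scale (q = 0.00045 in the authors' deposited table). Its paralogue UGP1 (AT3G03250), singled out for comparison after its values were seen, had 128 FPKM in phyA-1 and 126 FPKM in wild type and was not called. CINV1 (AT1G35580), a cytosolic invertase that splits sucrose, had 178 FPKM in phyA-1 and 122 FPKM in wild type, and rose by 0.54 on the log2 scale (q = 0.00558 in the authors' deposited table). None of the 6 sucrose synthase genes SUS1 to SUS6 was called. SUS3 (log2 ratio -0.32, p = 0.0232) and SUS4 (0.30, p = 0.0434) had an unadjusted p below 0.05 in the authors' deposited table. In all, 4 of the 10 supply genes had an unadjusted p of 0.05 or below, beside 25.7% of all tested genes. Whether the ratios of UGP1 and UGP2 differ could not be tested without values per library.

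Genes of secondary wall synthesis, its regulators and xylem markers were measured as a list of 20, of which 17 were tested. Of these, 1 rose, none fell and 16 were not called, beside 17.2% called over all tested genes, with a median log2 ratio of -0.03. The gene that rose was TED6 (AT1G43790), whose protein acts in tracheary element differentiation, with 79.5 FPKM in phyA-1 and 57.6 FPKM in wild type (log2 ratio 0.46, q = 0.0123 in the authors' deposited table). The secondary wall regulators NST2 and SND1 are listed at 0 in both genotypes. The 5 xylem markers, all of them also in this list, summed to 261 FPKM in phyA-1 and 238 FPKM in wild type. TED6 carries most of that difference, since the other 4 were not called and had log2 ratios from -0.11 for VND7 to 0.06 for XCP1. CESA4, CESA7 and CESA8 summed to 37.7 FPKM in phyA-1 and 44.0 FPKM in wild type. The part of xylem content in the secondary wall values was not tested.

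In the cellulose synthase-like D family, whose members make wall polysaccharide in tip-growing and dividing cells, 3 of 6 genes were tested. Here 1 rose and 2 were not called, beside 17.2% called over all tested genes. CSLD2 (AT5G16910) had 32.6 FPKM in phyA-1 and 24.9 FPKM in wild type, a log2 ratio of 0.37 (q = 0.0369 in the authors' deposited table). That call was lost when p-values were adjusted by Benjamini-Hochberg over all tested genes.

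**Figure D4:**
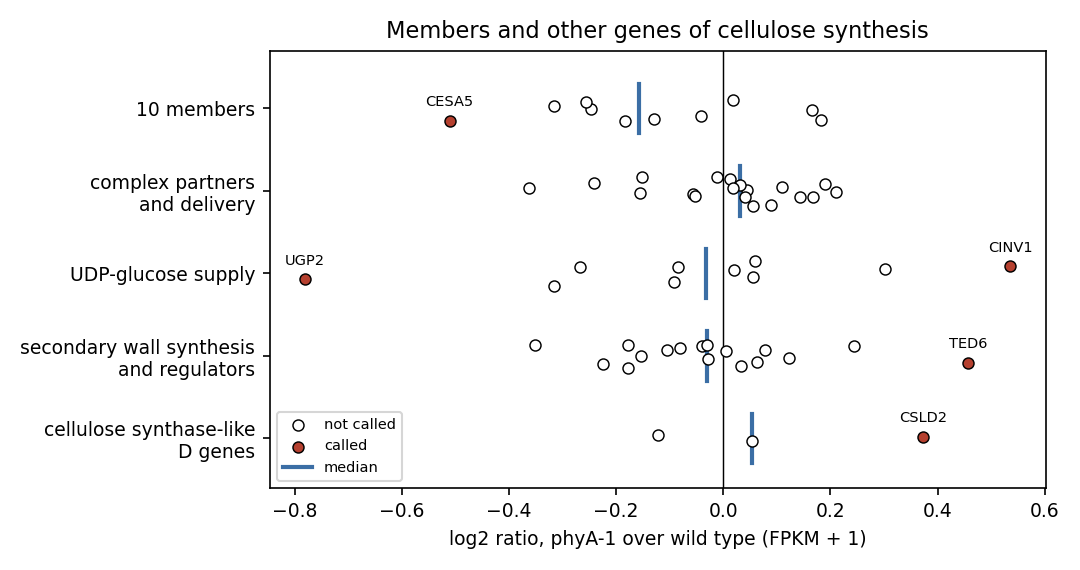
Log2 ratio of phyA-1 over wild type for the 10 members and for the tested genes of the 4 other lists, 1 circle per gene, filled and named when called, with a blue bar at the median of each row (vertical scatter only separates the points). Most genes lie near 0, and the called ones are CESA5 and UGP2 below 0 and CINV1, TED6 and CSLD2 above it.

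As a check of the labels, PHYA had 16.0 FPKM in phyA-1 and 167 FPKM in wild type (q = 0.00045 in the authors' deposited table). All 14 markers fixed for root hairs, mesophyll, epidermis, phloem and xylem had levels above 0 in both genotypes. Of these markers, 2 rose, 1 fell and 11 were not called, beside 17.2% called over all tested genes. The 3 root hair markers summed to 116 FPKM in phyA-1 and 81.9 FPKM in wild type. Of these, PRP3 rose, with 95.5 FPKM in phyA-1 and 63.2 FPKM in wild type, EXPA7 was not called, and COBL9, also not called, had 6.31 FPKM in phyA-1 and 6.65 FPKM in wild type. The 2 mesophyll markers summed to 4689 FPKM in phyA-1 and 7173 FPKM in wild type. Most of that sum is RBCS1A, which was not called, with 4466 FPKM in phyA-1 and 5991 FPKM in wild type. CAB3 was the marker that fell, with 223 FPKM in phyA-1 and 1182 FPKM in wild type. The part of organ proportions in the CESA values was not tested.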

How the data were processed

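Polyadenylated RNA of 6 seedling libraries, 3 of phyA-1 and 3 of wild type, was sequenced by Illumina's mRNA protocol, per the labels. Reads were aligned with Bowtie to TAIR10, per the submitters' processing notes. The sources used here name neither the strandedness nor the software for levels and testing. The authors deposited 1 table without a header, read by column order and checked against the values. It holds a pooled FPKM per genotype, the log2 ratio with wild type on top, and the authors' score, p-value and q-value of their test, whose making the sources used here do not describe. The deposited log2 ratio matched the FPKM ratio within 0.001 in 22482 of 22488 tested genes with a finite ratio, and the deposited q-value at 0.05 matched the authors' own call for all 22892 tested genes. No fit of its own was possible, so calls are those of the deposited test. The deposited q-values are not a Benjamini-Hochberg adjustment over the 22892 tested genes, which gives 0.00621 for CESA5.

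Ratios were turned round to phyA-1 over wild type with a pseudocount of 1 FPKM (Python 3.11.15, pandas 2.3.3), which understates changes of low genes. Benjamini-Hochberg adjustment was tested on simulated data. Loci are those of the table, written 1-based. Coding sequences were aligned globally with Biopython 1.88, and promoters and windows were read from the RefSeq genome TAIR10.1. Protein sequences were not used here.

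The members and lists were chosen with earlier results of these data known. Named are all 10 members and, per list, up to 4 called genes by size of ratio, or the most abundant gene of a list without a call. UGP1, other uncalled genes of the lists and single markers were named outside this rule, after their values were seen. Genes most like a member were not searched for, since 2 pooled values give no profile. SHOU4 and SHOU4L, of the partners list, were not analysed here.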

Additional observations from a re-analysis of the deposited data

How the results depend on the processing

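CESA5 had log2 ratios from -0.58 (median of genes at 5 FPKM or more subtracted) to -0.46 (pseudocount 5 FPKM) under the alternatives tried. A pseudocount cannot turn the sign of a ratio, and the scalings moved all genes by far less than the CESA5 ratio. The lower CESA5 value under them is therefore no further evidence. The call of CESA5 held by Benjamini-Hochberg over all tested genes (0.00621). It also held at a q-value of 0.01, as its deposited q of 0.00413 had already fixed. The 4 alternatives for the call were stricter or kept fewer genes. They could remove calls of members but add none, so the lack of a call for any other member under them is no further evidence. That median was 0.07, and making the summed FPKM of the genotypes equal without the most abundant gene moved phyA-1 by -0.04 on the log2 scale. CESA6 turned to -0.05 and -0.02 under these scalings, and no other member changed sign. At a q-value of 0.01, 1144 genes were higher against 1971 at 0.05, and the counts of genes that rose became 0 in the secondary wall list (TED6) and 0 in the cellulose synthase-like D list (CSLD2), the second also by Benjamini-Hochberg. The shares of the primary wall CESA sum given above rise by under 1.5-fold from shares of all 9 CESA genes, where CESA1 holds 29.1%, CESA3 33.6% and the CESA6-like genes 31.7% in phyA-1.

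No paired analysis was possible because the deposited table pools the replicates of each genotype, and leaving out a replicate was not possible for the same reason. Depth per library and the spread between replicates are unknown, so precision at low levels, as for CESA9, is unknown too. The deposited p-values go no lower than 5e-05.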
